A study of Homo sapiens with 22 samples.

Results

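EGR1, EGR2, EGR3 and EGR4 are the zinc finger transcription factors of the early growth response family, and ADO, which encodes a thiol dioxygenase, is the gene next to EGR2 on chromosome 10. These 5 of 20033 protein-coding genes were taken by name from GENCODE release 44 on hg38, and every peak within 250 kb of EGR2 or ADO, or within 50 kb of the other genes, was counted. After peaks that touched were merged across the lists of an antibody, the 4 windows held 39 of 90572 regions of H3K27ac (a histone mark of active promoters and enhancers), 12 of 20727 regions of H3K4me3 (a histone mark of promoters) and 3 of 2706 regions of ETS1 (a transcription factor of the ETS family). Of 58322 regions of the ab4729 pair, which is 1 more H3K27ac library in each arm, 16 were in the windows: 8 in both arms, 5 in siFLI1 only and 3 in siNEG only, where the shares over the genome were 36.2%, 49.2% and 14.6%. The windows also held 13 of the 16606 runs of at least 4 consecutive GGAA units found in the genome (counted on either strand).

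The peaks came from chromatin immunoprecipitation and sequencing of TC-32, an established Ewing sarcoma cell line and the only one in the series. All groups were reverse transfected with 20 nM siRNA: siNEG, a control, or siFLI1, used to deplete the fusion protein EWSR1::FLI1. The time after transfection was not given in the sources used here. Each arm had 2 libraries labelled for ETS1, 2 for H3K27ac, 2 for H3K4me3 and 1 with the ab4729 label, which was kept apart. For ETS1 in siFLI1 both lists were treated as 1 sample, for reasons given with the EGR1 results, so no ETS1 value has a replicate check in that arm. The remaining 8 of the 22 samples were inputs, for which no list was used here. Nothing in the labels says that replicates were separate transfections, so their spread may be technical.

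EGR genes are immediate early genes: growth factor signals through serum response factor (SRF) and its ETS partners switch them on within minutes, and the NAB proteins bind EGR1, EGR2 and EGR3 and hold them back. In Ewing sarcoma the fusion protein binds GGAA microsatellites, which can then act as enhancers. EGR2 is known as a susceptibility gene of this tumour that such repeats drive.

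The GGAA repeat that lay beside siNEG-only H3K27ac peaks is shown here with others of the EGR2 window that had no peak beside them. It spans chr10:62693084-62693227 (hg38, positions counted from 1), in an intron of the long noncoding RNA gene ENSG00000238280, and is printed with its flanks, from chr10:62693064 to 62693267 on the plus strand. Runs of at least 4 GGAA units are in capitals.
marked repeat, runs of 9 and 12 units: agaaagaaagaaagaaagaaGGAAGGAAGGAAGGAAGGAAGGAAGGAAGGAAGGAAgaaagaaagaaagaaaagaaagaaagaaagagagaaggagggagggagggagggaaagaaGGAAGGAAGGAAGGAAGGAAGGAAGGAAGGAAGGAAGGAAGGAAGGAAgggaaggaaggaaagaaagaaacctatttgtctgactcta
The longest run of the window without a peak beside it is at chr10:62729228-62729283 (minus strand), in an intron of the same gene, and the other unmarked runs printed are at chr10:62616479-62616526 (minus strand) and chr10:62755043-62755082 (plus strand). Each is printed with 10 flanking bases on both sides, in the direction that reads GGAA.
unmarked run, 14 units: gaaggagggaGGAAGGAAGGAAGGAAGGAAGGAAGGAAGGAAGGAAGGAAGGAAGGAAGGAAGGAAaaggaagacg
unmarked run, 12 units: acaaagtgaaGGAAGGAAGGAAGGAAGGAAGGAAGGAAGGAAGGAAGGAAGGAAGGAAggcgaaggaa
unmarked run, 10 units: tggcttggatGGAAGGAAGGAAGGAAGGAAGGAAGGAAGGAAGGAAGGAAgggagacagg
The uninterrupted runs hold the same letters in both sets. The marked repeat has 2 such runs with 60 bases between them, and the others printed here are single runs. Another cluster of the window, at chr10:62977736-62977831, has runs of 4, 11 and 4 units that lie closer together, and its nearest H3K27ac region was 128217 bp away, so several runs side by side were not particular to the marked repeat.

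EGR2 (ENSG00000122877.18) lies at chr10:62811996-62819167 on the minus strand, with its canonical start site at 62816366, and ADO (ENSG00000181915.6) at chr10:62804720-62808479 on the plus strand. Their joint window, 514 kb wide, held 11 H3K27ac regions. A region was called lost when both siNEG lists and no siFLI1 list held a peak there, and gained in the opposite case. The window had 2 lost regions and 1 gained region, 3 regions were in all 4 lists, and the other 5 were in 1 list each. Over the genome 4.86% of H3K27ac regions were lost, 8.19% were gained and 25.1% were in all 4 lists. Regions were not tested one by one, since an exact test of 2 lists against 2 cannot go below p = 0.333.

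The 2 lost regions lay on either side of the marked repeat, 123.2 kb from the EGR2 start site and 111.6 kb from the ADO start site. The nearer one, chr10:62692369-62692946, ended 137 bp before the repeat. Its peak in siNEG replicate 1 was 481 bp long with a fold enrichment (peak height over local background, as the authors' caller gives it) of 5.66, and in siNEG replicate 2 it was 352 bp long with a fold enrichment of 3.34. Within their own lists these peaks stood at percentiles 66.8 and 15.5 of fold enrichment, so the region ranked differently in the replicates. The other region, chr10:62693749-62694271, began 521 bp after the repeat. Its peaks were 440 bp and 422 bp long with fold enrichments of 3.84 and 4.28, at percentiles 29.2 and 48.3. Neither siFLI1 list held a peak in either region.

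The call of the nearer region rests on the authors' limit. The lowest −log10 q of the 4 siNEG peaks was 4.18, and with a limit of 5 the nearer region was in 1 siNEG list and no longer counted as lost, while the other region stayed lost. The ab4729 lists held no peak beside the repeat in either arm. The closest ab4729 peak was 76526 bp away, so the lost regions were seen in the replicated H3K27ac lists and not in the ab4729 pair.

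**Figure D1:**
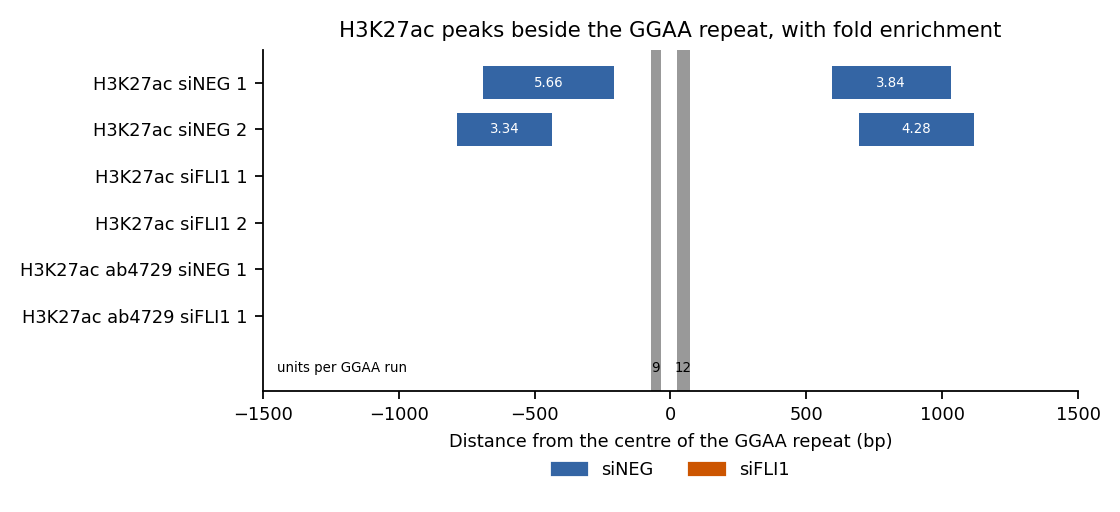
H3K27ac peaks in 6 lists against distance in bp from the centre of the GGAA repeat at the EGR2 and ADO locus; bars are peaks, the numbers in them the authors' fold enrichment, and grey bands the runs of 9 and 12 units. Both replicated siNEG lists have a peak on each side (3.34 to 5.66), while the siFLI1 lists and both ab4729 lists have none.

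Of the 9 GGAA runs in the EGR2 and ADO window, with 4 to 14 units, these 2 had an H3K27ac region within 1 kb. The runs of 10, 11, 12 and 14 units elsewhere in the window had none, and the closest of them to a region, the 10-unit run at chr10:62755043-62755082, was 14137 bp away. Over the genome 14.6% of the 16606 runs had an H3K27ac region within 1 kb, 3.75% had a lost one, 0.446% a gained one and 1.02% (169 runs) had a lost region on each side. The other members had no such pattern. EGR1 had 0 runs in its window, EGR3 had 3 (4 to 13 units) and EGR4 had 1 of 15 units, and none had an H3K27ac region within 1 kb. The EGR3 runs of 7 and 4 units lay 4297 bp and 4357 bp from the nearest H3K27ac region, which was in siNEG replicate 1 only.

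**Figure D2:**
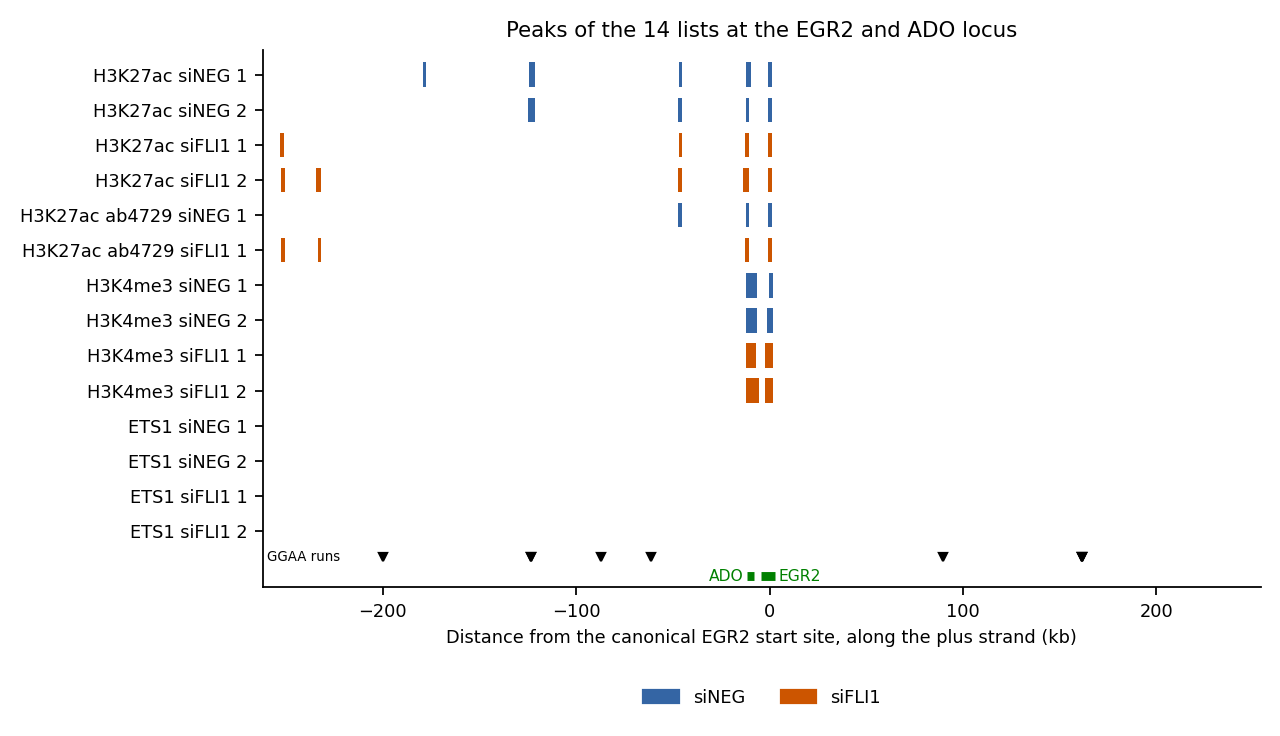
Peaks of the 14 lists by distance in kb from the canonical EGR2 start site along the plus strand; each row is a list, blue siNEG and orange siFLI1, peaks under 1.8 kb are drawn 1.8 kb wide, and triangles mark GGAA runs. The peaks above the triangle 123.2 kb to the left are in both siNEG H3K27ac lists and in no other list, and the ETS1 rows are empty.

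A further intronic H3K27ac region of ENSG00000238280, chr10:62769220-62771153, was in all 4 lists, 46.2 kb from the EGR2 start site. The peaks covered 1748 bp and 1709 bp of it in siNEG (mean 1728.5 ± 27.6, SD, n = 2) and 275 bp and 308 bp in siFLI1 (291.5 ± 23.3, SD, n = 2). The arms did not overlap and the difference was larger than the spread within them. Fold enrichment was 4.80 and 6.78 in siNEG against 3.43 and 4.44 in siFLI1, at percentiles 55.1 and 80.9 against 12.7 and 40.6, again without overlap. The ab4729 siNEG list held a peak of 444 bp there (fold enrichment 5.93) and the ab4729 siFLI1 list held none. Among the 22724 H3K27ac regions in all 4 lists, 21.3% had less covered length in both siFLI1 lists than in both siNEG lists, and 23.2% stood at a lower percentile. No GGAA run of at least 4 units was within 1 kb of this region.

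The gained region lay far out, at chr10:62563981-62564938, 252 kb from the EGR2 start site in introns of ENSG00000285837 (protein coding) and LINC02929. It was not called when peaks had to share at least 50% of the shorter interval, nor was it inside windows 0.5 times as wide. Fold enrichment was 3.44 and 5.17 in the siFLI1 lists, and the ab4729 siFLI1 list alone of that pair also held it, at 5.70. At 233.6 kb and 232.9 kb from EGR2, siFLI1 replicate 2 had 2 more peaks (fold enrichment 5.35 and 3.93), the second of which matched an ab4729 siFLI1 peak (5.56). The siFLI1 replicate 1 list had neither. One region, at chr10:62637538-62638126, was in siNEG replicate 1 only (3.21).

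At the start sites themselves all 4 lists held H3K27ac. The region at the EGR2 start site, chr10:62816446-62816768, had fold enrichments of 6.48 and 4.62 in siNEG and 7.48 and 7.41 in siFLI1, at percentiles 72.9 and 57.4 against 78.8 and 77.1. Both siFLI1 values lay above both siNEG values by both measures; 32.4% of the H3K27ac regions in all 4 lists had a higher fold enrichment in both siFLI1 lists and 27.8% a higher percentile. In the ab4729 pair the values were 7.25 in siNEG and 10.3 in siFLI1. The region at the ADO start site, chr10:62803931-62805483, had 12.0 and 9.49 in siNEG and 13.5 and 6.98 in siFLI1, with overlapping arms, and 13.5 and 12.1 in the ab4729 pair.

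H3K4me3 was at both start sites in all 4 lists, with 0 lost and 0 gained regions among 3 in the window; over the genome 2.83% of H3K4me3 regions were lost, 2.17% were gained and 62.6% were in all 4 lists. At EGR2 the region chr10:62814208-62818165 was covered over 1995 bp and 3055 bp in siNEG and over 3805 bp and 3958 bp in siFLI1. Fold enrichment there was 13.0 and 14.9 in siNEG against 17.5 and 23.6 in siFLI1, but the percentiles were 43.7 and 47.6 against 44.0 and 48.9 and overlapped. The median fold enrichment of a whole list was 20.1 and 17.8 in siNEG and 24.9 and 24.8 in siFLI1, so the lists as a whole were higher too, and 28.9% of the H3K4me3 regions in all 4 lists had a higher fold enrichment in both siFLI1 lists. Covered length was greater in both siFLI1 lists at 17.3% of the H3K4me3 regions in all 4 lists. The median peak of a whole list was also longer, at 1978 bp and 2028 bp in siFLI1 against 1843 bp and 1716 bp in siNEG. At ADO the region chr10:62804019-62809031 had fold enrichments of 62.5 and 51.9 in siNEG and 60.3 and 35.5 in siFLI1, with overlapping arms. H3K4me3 at ADO thus stood higher in its lists (percentiles 59.3 to 87.9) than at EGR2 (43.7 to 48.9) in every library.

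**Figure D3:**
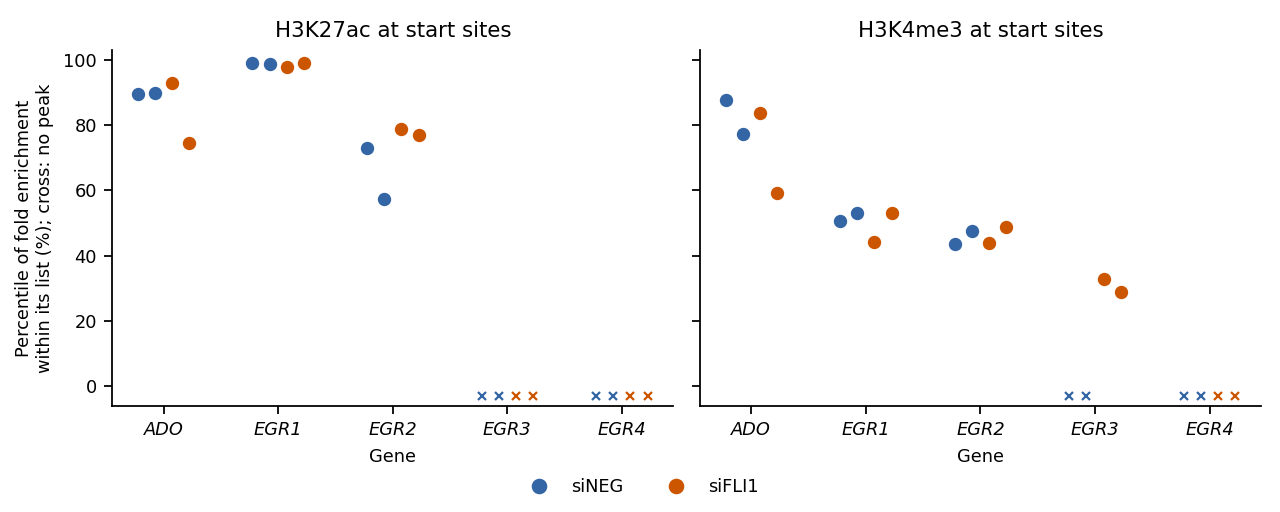
Percentile of the authors' fold enrichment within its list (0 to 100%) for the peak at each gene's start site, in 2 siNEG (blue) and 2 siFLI1 (orange) libraries per mark; crosses mark lists without a peak. EGR1 stands at the top of the H3K27ac lists in all 4 libraries, EGR4 has no peak, and EGR3 has H3K4me3 peaks in the siFLI1 libraries only.

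Summed over the EGR2 and ADO window, H3K27ac peaks covered 5384 bp and 3943 bp in siNEG (4663.5 ± 1019, SD, n = 2) and 2519 bp and 3561 bp in siFLI1 (3040 ± 737, SD, n = 2). On the log2 scale siFLI1 over siNEG was -0.62, where the SD pooled within arms was 0.336. A two-sided exact permutation test over the libraries gave p = 0.333, and 2 libraries against 2 cannot go lower. H3K4me3 peaks covered 6471 bp and 7824 bp in siNEG and 8026 bp and 9094 bp in siFLI1, which is 0.26 on the log2 scale against a pooled SD of 0.164 (p = 0.333 by the same exact test). The arms did not overlap for either mark, H3K27ac being lower and H3K4me3 higher in siFLI1. With that floor the test could not separate the arms, so it decides neither difference. How often other windows of the genome separate in this way was not counted. Of the H3K27ac sums, the intronic region chr10:62769220-62771153 held a mean of 1728.5 bp in siNEG and 291.5 bp in siFLI1. By number of peaks the H3K27ac log2 ratio was -0.16. No ETS1 list held a peak in this window.

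**Figure D4:**
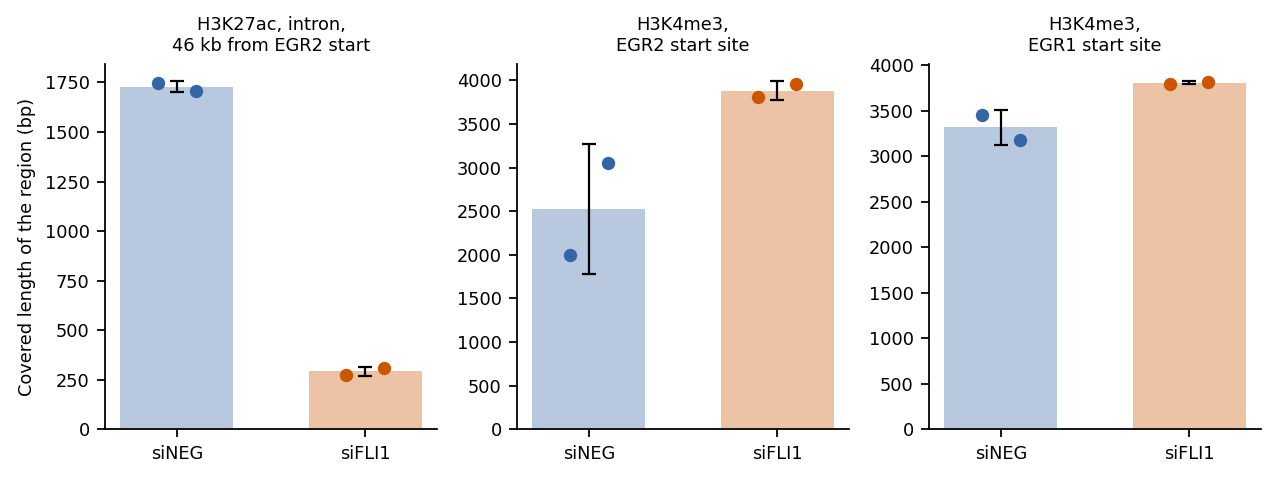
Length in bp covered by peaks in 3 regions found in all 4 lists: the intronic H3K27ac region 46 kb from the EGR2 start site and the H3K4me3 regions at the EGR2 and EGR1 start sites; points are libraries, bars means and error bars SD (n = 2). siFLI1 covers 275 and 308 bp of the intronic region against 1748 and 1709 bp in siNEG, and covers more of both start-site regions than siNEG does. The median H3K4me3 peak was also longer in both siFLI1 lists as a whole.

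EGR1 (ENSG00000120738.8, chr5:138465479-138469303, plus strand), the member most used as a sign of growth factor signalling, carried the strongest H3K27ac of the family. The region at its start site, chr5:138463401-138466025, had fold enrichments of 32.0 and 21.0 in siNEG and 21.2 and 26.3 in siFLI1. These placed it between percentiles 97.9 and 99.1 of every replicated list, with overlapping arms. In the ab4729 pair the values were 18.0 and 18.6. The H3K4me3 region there, chr5:138463647-138467577, covered 3455 bp and 3181 bp in siNEG and 3799 bp and 3820 bp in siFLI1. It was longer in both siFLI1 lists, as were 17.3% of the H3K4me3 regions in all 4 lists. Its fold enrichment overlapped (20.7 and 21.8 against 17.7 and 28.6).

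The EGR1 window had 15 H3K27ac regions, with 1 gained, 0 lost and 4 held by every list. The region chr5:138503675-138509712 was 41.2 kb downstream of the EGR1 start site and over the 3′ end of ETF1, which encodes a translation termination factor. Its fold enrichment was 28.5 and 20.6 in siNEG against 12.6 and 10.9 in siFLI1, at percentiles 98.6 and 98.6 against 91.8 and 88.3, while the covered length overlapped (4650 bp and 5116 bp against 4827 bp and 5191 bp). Fold enrichment was lower in both siFLI1 lists at 17.1% of the H3K27ac regions in all 4 lists. The ab4729 lists held 5 regions inside it. The one in both arms, chr5:138505156-138505773, had 6.26 in siNEG and 4.27 in siFLI1, another was in siNEG only (5.13) and the other 3 were in siFLI1 only (5.23, 5.87 and 4.14), so this pair did not show a lower level in siFLI1 throughout.

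Upstream of EGR1, the intergenic region chr5:138448382-138450095 lay 16.2 kb from the start site. It was covered over 1376 bp and 1453 bp in siNEG and 702 bp and 779 bp in siFLI1, while its fold enrichment had the reverse order, 5.21 and 4.94 in siNEG against 6.30 and 8.48 in siFLI1 (percentiles 61.4 and 63.8 against 71.8 and 81.9). The ab4729 lists held 2 peaks there in each arm, with 6.93 and 6.24 in siNEG and 4.25 and 5.91 in siFLI1, so the fold enrichment was not higher in siFLI1 in that pair. Among the H3K27ac regions in all 4 lists, 21.3% had less covered length in both siFLI1 lists. A higher fold enrichment in both was found at 32.4% and a higher percentile at 27.8%. The gained region, chr5:138514274-138515360, was in an intron of ETF1, 49.3 kb from the EGR1 start site, with 4.48 and 3.98 in the siFLI1 lists and no ab4729 peak.

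The EGR1 promoter also held the only ETS1 region of the 5 genes found in more than 1 list. It was at chr5:138465103-138465402, with a fold enrichment of 6.83 (300 bp, percentile 62.6) in siFLI1 replicate 1 and 10.2 (227 bp, percentile 86.0) in siFLI1 replicate 2, and no siNEG list held it. The summits were 204 bp and 225 bp upstream of the start site. Over the genome 44.0% of ETS1 regions were gained by this rule and 0.0739% were lost. The siFLI1 lists had 1633 and 2635 peaks and the siNEG lists 302 and 208. When each list was cut to the same number of its strongest peaks, the ETS1 region at EGR1 was not called gained. Between the siFLI1 ETS1 lists, tag heights varied less than sampling noise would give (chi-square per degree of freedom 0.418 over 495 regions), and the peak names in the list of replicate 1 carried the number 2, which is why they were counted as 1 sample.

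The stretch is printed because it holds the bases shared by both ETS1 peaks and, beside them, sequence matches to the site of SRF. Binding of SRF was not measured. From chr5:138465150, the first base that both peaks share, to 138465449 (hg38, plus strand), capitals mark CArG boxes, the element that SRF binds, and GGAA cores on either strand, the heart of an ETS site.
EGR1 promoter: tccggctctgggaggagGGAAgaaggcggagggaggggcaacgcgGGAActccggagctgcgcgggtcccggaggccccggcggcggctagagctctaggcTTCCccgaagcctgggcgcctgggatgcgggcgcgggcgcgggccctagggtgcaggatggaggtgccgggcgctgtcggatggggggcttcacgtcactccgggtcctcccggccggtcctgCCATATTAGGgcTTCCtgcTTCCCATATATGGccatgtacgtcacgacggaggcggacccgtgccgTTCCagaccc
The 227 bases shared by both peaks hold 3 GGAA cores and no CArG box. The CArG boxes begin 105 bp and 83 bp upstream of the start site, the first just before the end of the shared stretch and the second past it. The longer ETS1 peak, that of siFLI1 replicate 1, ends at 138465402 and so covers the whole first box and all but the end of the second. The summit of siFLI1 replicate 2 lay inside a GGAA core and that of siFLI1 replicate 1 was 21 bp from one. GGAA cores are common (95.5% of 35116 RefSeq promoters of 300 bases hold 1 or more), and neither CCGGAAA nor CCGGAAG was found in the printed stretch.

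The start site of EGR2 has the same element once, 71 bp upstream, between 2 copies of TGACG (on either strand), the part of a cAMP response element that CREB1 binds. It is shown from chr10:62816377 to 62816616 on the minus strand (RefSeq, GRCh38.p14), partly under the H3K27ac region at the EGR2 start site, with the CArG box and TGACG in capitals. The TGACG copy printed first lies within that region, while the CArG box and the other copy lie outside it.
EGR2 promoter: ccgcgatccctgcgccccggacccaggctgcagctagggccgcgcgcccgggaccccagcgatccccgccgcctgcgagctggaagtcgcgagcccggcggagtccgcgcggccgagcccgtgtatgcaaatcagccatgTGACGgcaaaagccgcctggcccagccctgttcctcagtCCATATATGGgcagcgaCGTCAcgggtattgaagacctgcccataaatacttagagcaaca
In RefSeq promoters (250 bases before to 50 after a start) a CArG box was found in 1.29% of all 35116, at least 2 in 0.0313%, TGACG in 24.6% and at least 2 TGACG in 6.02%. EGR1 had 2 CArG boxes and 2 TGACG, EGR2 had 1 and 2 at this start site and none of either at its other 2 listed starts, and ADO and EGR4 had 0 CArG boxes and 2 TGACG each. The promoter of EGR3 was not analysed here. None of these promoters held GCGTGGGCG or GCGGGGGCG, sequences that EGR proteins bind, which 0.795% and 5.07% of all promoters hold. These matches describe letters in the windows only.

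EGR3 (ENSG00000179388.9, chr8:22687659-22693480, minus strand), which takes part in muscle spindle development and T cell tolerance, had the only gained H3K4me3 region of the family. The region chr8:22691964-22693447 lay just inside the start site, with 923 bp and a fold enrichment of 7.94 (percentile 32.8) in siFLI1 replicate 1 and 1484 bp and 6.25 (percentile 29.0) in siFLI1 replicate 2. Neither siNEG list had a peak there. Over the genome 2.17% of H3K4me3 regions were gained, and 1.44% of protein-coding genes had a gained one within 1 kb of a start site. The count of gained H3K4me3 regions at EGR1, EGR3 and EGR4 was 1 under each alternative that was run.

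A neighbouring H3K4me3 region, chr8:22694625-22695949, lay upstream of EGR3 at the start site of the long noncoding RNA ENSG00000289521 and was in all 4 lists. Its fold enrichment was 11.2 and 10.1 in siNEG against 7.94 and 7.73 in siFLI1, at percentiles 41.7 and 42.7 against 32.8 and 32.4. Both siFLI1 values were below both siNEG values, the reverse of the order at the EGR3 start site. A lower percentile in both siFLI1 lists was found at 29.4% of the H3K4me3 regions in all 4 lists, and a lower fold enrichment at 17.1%. The ETS1 list of siFLI1 replicate 2 alone held 2 peaks in the neighbouring region (fold enrichment 6.63 and 4.08).

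H3K27ac at EGR3 was limited to 1 library. No list held a peak at its start site, and the peak of siNEG replicate 1 in the neighbouring region (fold enrichment 4.14) had no counterpart in another list, ab4729 included. The remaining regions of the window belonged to BIN3, whose start site had H3K27ac in all 4 lists. EGR4 (ENSG00000135625.8, chr2:73290929-73293701, minus strand), a member known from neurons, had neither mark nor ETS1 at its start site in any of the 14 lists. Its window held 9 H3K27ac regions, of which 1, at the CCT7 start site, was in all 4 lists and 8 were in 1 list each, with the nearest centre 37.6 kb away. The 1 H3K4me3 region was at the start site of FBXO41. By percentile of H3K27ac at the start site the family was ordered the same way in both arms: EGR1 (97.9 to 99.1), then EGR2 (57.4 to 78.8), then EGR3 and EGR4 without a peak.

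**Figure D5:**
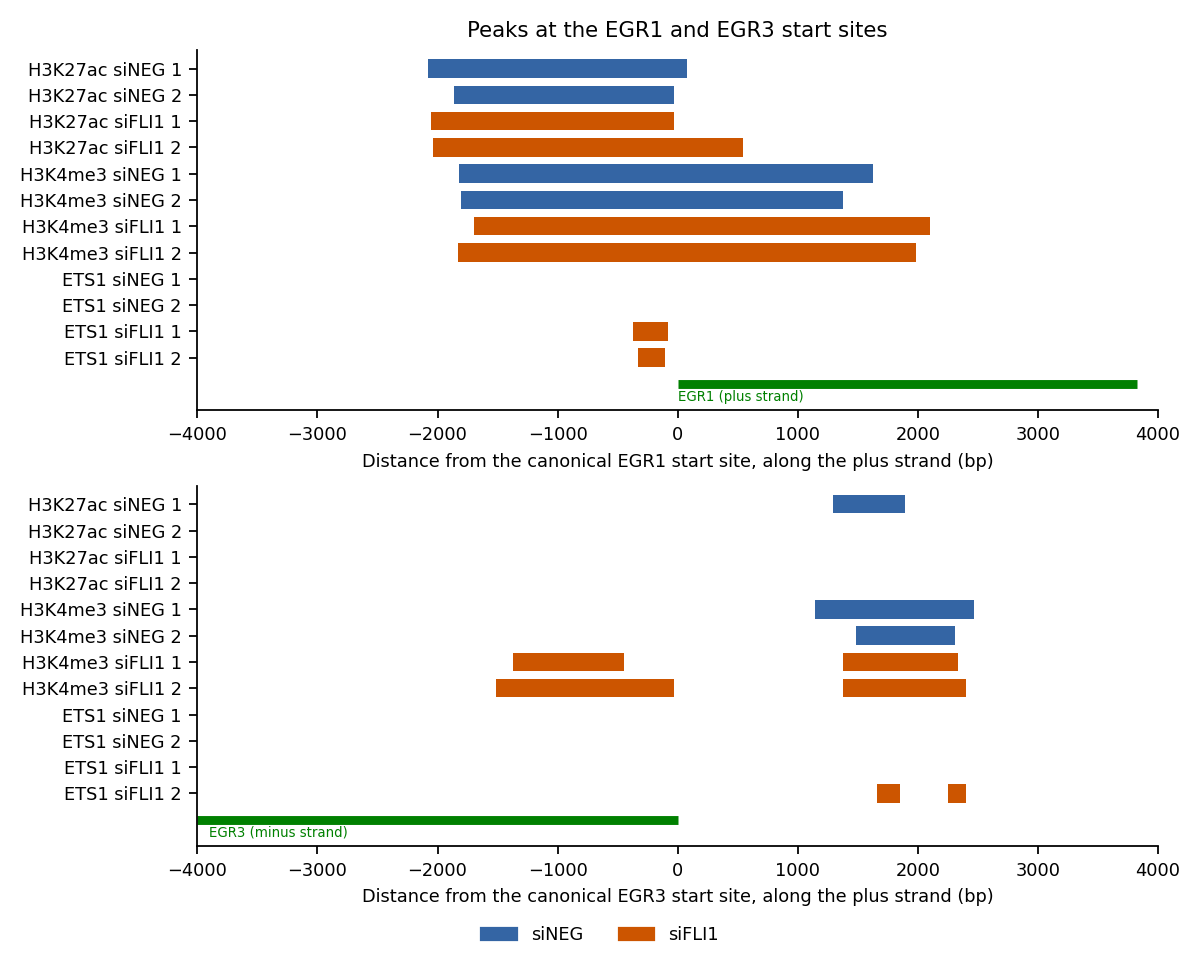
Peaks around the canonical start sites of EGR1 (top) and EGR3 (bottom) by distance in bp along the plus strand; rows are lists, blue siNEG and orange siFLI1, and green bars the genes. The ETS1 peaks at EGR1 and the H3K4me3 peaks just inside EGR3 are in the siFLI1 lists only.

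With the same 250 kb window at every member, EGR1 had 2 lost and 5 gained H3K27ac regions, EGR3 had 1 lost and 0 gained, and EGR4 had 1 of each. EGR2 and ADO had 2 lost and 1 gained, and they alone of the 5 genes had GGAA runs beside a lost region. Across the genome 53.7% of protein-coding genes had at least 1 lost H3K27ac region within 250 kb and 29.1% had at least 2, so the count of lost regions at EGR2 is common. At least 1 gained region was found at 71.5% and at least 5, the count at EGR1, at 19.0%. At least 2 lost regions together with at least 2 GGAA runs within 1 kb of a lost region were found, beside EGR2 and ADO, at 478 of 20033 genes, or 2.39%. Those with the most such runs were PLXDC2 (6 runs, 4 lost regions), TPRG1 (6 and 3), TP63 (6 and 2), SYNPR (5 and 10) and LY86 (5 and 7). Likeness was measured by these 2 counts over the 4 H3K27ac lists. The windows of TPRG1 and TP63 overlap, so these genes may share runs and lost regions. Other neighbours among the 478 may do so too, and longer genes have wider windows.

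Among the proteins that act on EGR genes or with them, 9 genes were followed within 50 kb: the corepressors NAB1 and NAB2, SRF and its coactivator MRTFA, the SRF partners ELK1, ELK3 and ELK4, CREB1, and the ETS factor ETS2. H3K4me3 was at the start site of all 9 in every list and H3K27ac at 7, where 62.8% and 46.1% of all protein-coding genes had such a region. A gained H3K27ac region was found at 5 (ELK3, MRTFA, NAB2, CREB1 and ETS2) and a lost one at 2 (SRF and MRTFA), where 38.0% and 22.9% of all protein-coding genes had one. ELK3 had 4 gained regions, one of them, chr12:96187309-96188161, with 8.04 and 3.77 in the siFLI1 lists. At MRTFA the strongest of 3, chr22:40498317-40500253, had 11.6 and 5.38.

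MRTFA and ELK3 were the 2 genes of this list with a gained H3K4me3 region, in each case within 1 kb of a start site. At MRTFA, chr22:40531592-40533890 had fold enrichments of 13.0 and 8.69, and at ELK3, chr12:96192653-96193472 had 4.74 and 2.68, the second at percentile 0.646 of its list. None of the 9 genes, nor of the 15 other immediate early genes, had a lost one. Over all protein-coding genes 5.12% had a gained H3K4me3 region within 50 kb and 9.40% a lost one. Gained ETS1 regions were at NAB2 (3 regions, the strongest at chr12:57087195-57088035 with 9.07 and 12.2 in the lists of that 1 siFLI1 sample) and at CREB1 (1 region), against 15.6% of all protein-coding genes. The lost H3K27ac region at SRF, chr6:43183955-43184836, had 2.93 and 5.11 in the siNEG lists.

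The other immediate early genes, which share signals with the EGR family, numbered 15, SRF being in both lists. H3K4me3 was in all 4 lists at the start sites of all 15 and H3K27ac at 14, the exception being ARC. A gained H3K27ac region within 50 kb was found at 11 genes (20 regions) and a lost one at 7 (8 regions), where 38.0% and 22.9% of all protein-coding genes had one. FOSL1, JUN and JUNB had neither. DUSP1, a phosphatase that switches off MAP kinases, had the most gained regions, 4, and 0 lost. One of these, chr5:172794473-172796026, had 9.92 and 7.39. KLF6 had 3 gained and 1 lost, and IER2 was the gene with 2 lost and 1 gained.

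FOSB was the 1 gene of the 15 with a gained H3K4me3 region (6.07 and 5.45), 17.7 kb from the gene. Gained ETS1 regions were found within 50 kb of 10 of the 15 genes and within 1 kb of a start site of 6: JUN, JUND, IER2, ATF3, DUSP1 and NR4A1. Of all protein-coding genes, 15.6% and 6.01% had one. At IER2, chr19:13151561-13152329 had 8.76 and 10.2, and at ATF3, chr1:212608287-212609031 had 8.33 and 10.9, beside 6.83 and 10.2 at EGR1, all from the 2 lists of 1 siFLI1 sample. These shares over lists of 9 and 15 genes are descriptions, and how they relate to gene density or to the activity of the promoters was not tested.

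As a check of the siRNA label, NKX2-2, PRKCB, NR0B1 and CCND1, which the fusion is known to raise, together had 16 lost and 2 gained H3K27ac regions within 50 kb: PRKCB 10 lost and 2 gained, CCND1 4 lost, and NKX2-2 and NR0B1 1 lost each. All 4 had a lost region and 1 a gained one, where 22.9% and 38.0% of all protein-coding genes did. PRKCB is a long gene, so its window is wider than those of the other 3. The lists held 60027 to 65501 H3K27ac peaks, 18344 to 19720 H3K4me3 peaks, and 32738 (siNEG) and 51663 (siFLI1) ab4729 peaks. Sequencing depth was not given in the sources used here, so no floor can be put on an absent peak.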

How the data were processed

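Per the submitters' processing notes, the authors' tools included cutadapt 4.4, BWA 0.7.17, Picard 2.17.11 and MACS2 2.1.1, and the builds named were GRCh38, hg38 and dm6, without a role for each. The authors deposited 1 peak list per library. Its columns hold the authors' fold enrichment (a ratio), −log10 p-value and −log10 q-value per peak, a score made from the q-value, and the summit position; the control library is not given in the sources used here. All contigs and peak ends were within hg38. The authors' fold values were used to describe peaks, to rank them within a list and to set lists side by side. They were not rescaled between lists. Depth is unknown.

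Peaks of the 22 autosomes, X and Y were merged per antibody where they shared at least 1 bp (Python 3.11.15, pandas 2.3.3, pysam 0.24.0). Start sites and genes came from GENCODE 44, GGAA runs (at least 4 units) from hg38 and promoters from RefSeq. A run was beside a region when within 1 kb. Named were the 5 genes, 2 gene lists, 4 genes for a check of the siRNA label, every gained or lost region of the members' windows (250 kb for EGR2 and ADO, 50 kb for the others), member regions at start sites or beside GGAA runs, and the 5 genes most like EGR2. The members and lists were chosen with earlier results of these data known. Covered lengths were compared by exact permutation (SciPy 1.17.1). Other choices tried were equal list lengths, stricter overlap and q limits, other windows and repeat rules, and leaving out each library. ETS1 tag heights were recovered from the deposited fold and −log10 p, whole within a tolerance of 0.02 in at least 99.96% of siFLI1 peaks. In the siNEG ETS1 lists that held for 10.9% and 7.69%, so that pair was not compared. The merging, calling and repeat-search steps recovered every planted case in simulated data.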

Additional observations from a re-analysis of the deposited data

How the results depend on the processing

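Of 108 alternative values for 12 results, 91 kept the sign of a log2 ratio or, for counts, stayed within 1.5 times the reported count. Another 17 moved and 0 reversed. Only the log2 ratios could reverse, since a count could only stay or move. The replicate block could not change a log2 ratio, only its p-value. Both lost H3K27ac regions beside the repeat were called lost in each setting run but 1 (several of them, such as equal list lengths, mainly remove siFLI1 peaks and could not undo such a call): with −log10 q of at least 5, the lost count at EGR2 and ADO was 1. The gained count there was 0 with an overlap of at least 50% and 0 in windows 0.5 times as wide, and that at EGR1, EGR3 and EGR4 was also 0 in those windows. The 2 repeats beside lost regions became 3 with runs of at least 3 units and 0 when the repeat had to lie inside a region. The ETS1 count was 0 at equal list lengths. By number of peaks in place of covered length, the H3K4me3 log2 ratio at EGR2 and ADO was 0. Leaving out each library gave, at EGR2 and ADO, 1 to 4 gained H3K27ac regions (4 without siFLI1 replicate 1), 2 to 4 lost (4 without siNEG replicate 2) and 0 to 1 gained H3K4me3 regions (1 without siFLI1 replicate 1). At EGR1, EGR3 and EGR4 it gave 1 to 7 gained H3K27ac regions (6 without siFLI1 replicate 1, 7 without siFLI1 replicate 2), 0 to 8 lost (4 without siNEG replicate 1, 8 without siNEG replicate 2) and 0 to 1 lost H3K4me3 regions (1 without either siNEG replicate). ETS1 regions ranged from 1 to 3 (3 without siFLI1 replicate 1). In each case 1 list then decided its arm. The covered-length log2 ratios then ranged from -0.87 to -0.37 for H3K27ac and from 0.13 to 0.40 for H3K4me3. Without leaving out a library, the H3K27ac ratio was -1.02 in windows 0.5 times as wide and -0.16 by number of peaks (exact permutation p = 1). With the replicate block the log2 ratios were -0.62 and 0.26 (exact sign-flip permutation p = 0.5 each). Same-numbered libraries deviated together in fold enrichment with correlations of only 0.011 and 0.0082. No shared effect of the replicate number on fold enrichment was thus seen, and the labels do not say whether the numbers pair the samples.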
